A study of Mus musculus with 18 samples.

Results

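The matrix metalloproteinases and their tissue inhibitors were followed through B16F10 tumors treated with a STING agonist, either free or loaded into extracellular vesicles (EVs). The 9 genes were taken by name from a table of 50600 genes and were not picked by a fold change or p-value. They were, however, chosen with earlier results of these data known. They are 6 metalloproteinases, Mmp2, Mmp3, Mmp10, Mmp12, Mmp13 and Mmp14, and 3 inhibitors, Timp1, Timp2 and Timp3. All 9 passed the filter on low counts and were among the 16927 genes tested.

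B16F10 is a mouse melanoma line, and every tumor grew from these cells under the skin of the flank of a C57BL/6 mouse. Mice of this strain were female and 5 to 6 weeks old when bought, per the study's methods, and their age at injection is not given in the sources used here. The agonist CDN2, called CL656 in the labels, is the cyclic dinucleotide cAIM(PS)2 Difluor, and exoCDN2 is CDN2 carried by EVs from HEK293 cells, a human embryonic kidney line. After 1 intratumoral (IT) dose the groups were PBS, unloaded EVs, free CDN2 at 20 µg, free CDN2 at 100 µg and exoCDN2 at 0.1 µg. After 2 doses given 3 days apart they were PBS, free CDN2 at 20 µg and exoCDN2 at 0.1 µg. All tumors were taken 24 h after the last dose, so those given 2 doses were also 3 days further from implantation. Each of these 8 groups held 2 tumors, and each tumor was 1 library. Another 2 tumors were labelled as given 2 doses of free CDN2 without an amount, and they are described by their levels only. The RNA came from whole tumors with no sorting, so each level is a mixture of melanoma, stromal and immune cells, and fewer cells of a type cannot be told apart from less RNA per cell. The labels do not state how the 2 tumors of a group were handled, so p-values measure only the spread between tumors of the same group. That spread was estimated for each gene over all 8 groups together. In the group given 2 doses of 20 µg of free CDN2, 27.1% of genes tested differed over 2-fold between its tumors. In the other labelled groups this share was 3.84% to 10.6%. The wider spread of that group is thus only partly reflected in its p-values.

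Matrix metalloproteinases are zinc enzymes that cut proteins of the extracellular matrix, and most are secreted as inactive precursors that other proteases open. Mmp2 is a gelatinase, Mmp3 and Mmp10 are stromelysins, Mmp12 is the macrophage elastase, Mmp13 is an interstitial collagenase and Mmp14 is anchored in the cell membrane, where it activates the Mmp2 precursor. The Timp proteins bind the active site of these enzymes and block it. Timp2 also bridges Mmp14 and the Mmp2 precursor at the cell surface, and Timp3 is held in the matrix. In tumors much of this machinery is made by fibroblasts and myeloid cells as well as by the cancer cells.

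Levels are given as CPM, the reads of a gene scaled to the size of its library, with TMM, edgeR's correction for differences in library composition. The total expected counts ran from 21608895 to 65983630 per tumor, and the lowest total belonged to tumor 1 of the group given 2 doses of free CDN2. A gene was called at an adjusted p (edgeR's quasi-likelihood test, Benjamini-Hochberg) under 0.05 with a ratio over 2. B16F10 identity was visible in every tumor: the summed level of 8 melanocyte lineage genes lay between 7747 and 26769 CPM.

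Of the 9 genes, 4 lie in 1 cluster. On GRCm38 chromosome 9, 10 Mmp genes follow each other over 427.1 kb, in the order Mmp13, Mmp12, Mmp1b, Mmp3, Mmp1a, Mmp10, Mmp8, Mmp27, Mmp20 and Mmp7. Mmp13 (chr9:7272514-7283331), Mmp12 (chr9:7344381-7369499), Mmp3 (chr9:7445822-7455975) and Mmp10 (chr9:7502352-7510240) are all on the plus strand. The others are scattered: Mmp2 at chr8:92827291-92853420, Mmp14 at chr14:54431612-54445364, Timp1 at chrX:20870166-20874735, Timp2 at chr11:118301069-118355740 on the minus strand and Timp3 at chr10:86300372-86349506. Timp3 shares 1733 exonic bases with Syn3 on the opposite strand, and Mmp12 shares 157 with Mmp1b. Whether reads were counted by strand is not given in the sources used here, so reads of Timp3 and Syn3 cannot be told apart at these bases. Mmp1b held between 0 and 3 expected counts in any tumor.

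The stretch just before the transcription start is shown for the 3 clustered genes with the highest called fold changes, and for Timp1, a gene on another chromosome that was called with them after 2 doses of free CDN2. The sequences are from RefSeq (GRCm38.p6) and give the 120 bases before the RefSeq start on the strand of the gene. Capitals mark the letters TGAGTCA, or TGACTCA, the same motif on the other strand, which AP-1 transcription factors are known to bind.
Mmp3, chr9:7445702-7445821, plus strand: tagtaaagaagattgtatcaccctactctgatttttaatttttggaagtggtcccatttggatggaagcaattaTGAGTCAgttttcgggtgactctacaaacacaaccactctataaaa
Mmp10, chr9:7502222-7502341, plus strand: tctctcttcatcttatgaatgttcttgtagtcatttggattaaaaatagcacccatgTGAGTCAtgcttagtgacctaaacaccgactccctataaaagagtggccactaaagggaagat
Mmp13, chr9:7272394-7272513, plus strand: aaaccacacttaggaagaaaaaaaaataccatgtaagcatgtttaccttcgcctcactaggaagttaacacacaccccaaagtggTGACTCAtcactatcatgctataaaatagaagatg
Timp1, chrX:20870046-20870165, plus strand: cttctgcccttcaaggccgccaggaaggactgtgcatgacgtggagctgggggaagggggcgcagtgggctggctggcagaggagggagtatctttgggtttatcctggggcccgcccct

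The AP-1 letters begin at position -46 of Mmp3, -63 of Mmp10 and -35 of Mmp13, counted back from the RefSeq start. Windows of 300 bases, 250 before the start and 50 after it, were given for 8 of the 9 genes; none was given for Mmp2. AP-1 letters were present in windows of 4 of these 8 genes, the fourth being Mmp12 at its second start, and in 5.2% of all 32851 windows of the table. The letters TATAAA were in windows of 4 genes and in 13.6% of all windows. They began at -16 in Mmp13, -7 in Mmp3 and -29 in Mmp10. In Mmp12 they lay after its second start, at position 5, and not before it. AGGAAG, the PEA3 motif, was in windows of 6 genes and in 35.4% of all. The ISRE core GAAANNGAA was in a window of 1 gene, Mmp13, as a pair of overlapping matches, and in 8.56% of all. TTCNNNGAA, the GAS motif, and GGANTTTCC, an NF-kB motif, had no match in these windows, against 8.3% and 1.25% of all. All motifs were searched on both strands, and matches to AGGAAG, GAAANNGAA and TTCNNNGAA can overlap one another. Outside the 9 genes, the cluster neighbours Mmp1a and Mmp1b also had AP-1 letters, at -73 and -93. Mmp1a and Mmp1b held at most 1 and 3 expected counts in any tumor. Mmp8 and Mmp27 had no AP-1 match in their windows. These are matches of letters and not measured binding sites.

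In the 4 PBS tumors, those of 1 and 2 doses pooled, Timp1, Timp2 and Mmp14 stood well above Timp3 and the secreted proteases per kb of exon. The exons of all annotated transcripts were joined for this length, so genes can be compared only roughly. Timp2 was highest at 56.3 ± 14.8 CPM per kb (SD, n = 4). Mmp14 followed at 28.2 ± 4.03 and Timp1 at 19.5 ± 0.87. Then came Timp3 at 3.48 ± 0.55, Mmp3 at 2.83 ± 0.87, Mmp12 at 2.4 ± 0.96, Mmp2 at 2.24 ± 0.30 and Mmp13 at 1.52 ± 1.03, neighbours whose differences were within their spreads. The place of Mmp12 depends on its joined length of 7237 bases, against 1801 for Mmp3 and 3371 for Mmp2. In CPM, Mmp12 was 17.4 ± 6.92, against 5.09 ± 1.56 for Mmp3 and 7.54 ± 1.01 for Mmp2. Mmp10 was lowest, at 0.23 ± 0.14 CPM per kb.

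**Figure D1:**
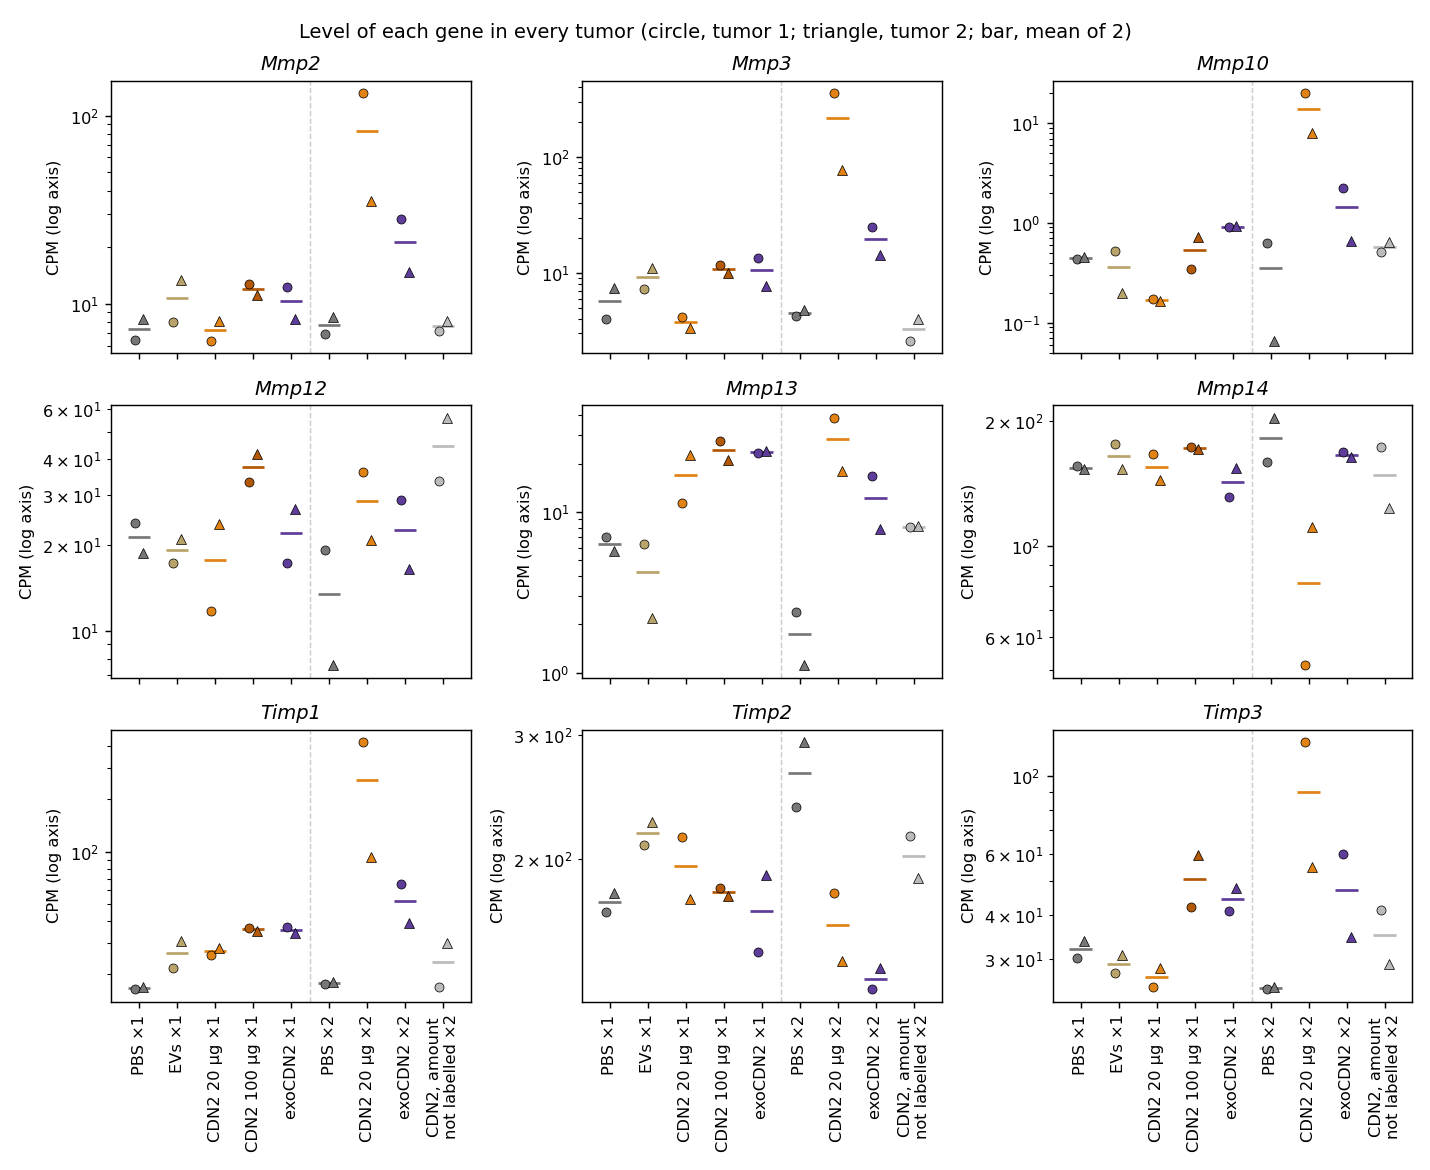
CPM of the 9 genes (log axes, a different range in each panel) in every tumor by group, where circles are tumor 1, triangles are tumor 2 and bars are the mean of both; the dashed line separates 1 from 2 doses. Mmp3 stood at 354 and 76.5 CPM after 2 doses of free CDN2 and between 3.35 and 24.7 CPM in the other 14 tumors of the labelled groups.

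Mmp3, stromelysin-1, which cuts many matrix proteins and opens other metalloproteinase precursors, had the largest range apart from Mmp10. After 1 dose it stood at 3.98 and 7.38 CPM with PBS, 7.26 and 11 with unloaded EVs, 4.13 and 3.35 with 20 µg of CDN2, 11.6 and 9.92 with 100 µg and 13.3 and 7.68 with exoCDN2. After 2 doses it was 4.25 and 4.77 CPM with PBS, 24.7 and 14.3 with exoCDN2 and 354 and 76.5 with CDN2. The 3 groups given 2 doses did not overlap, and the pair of CDN2 tumors differed 4.62-fold from each other. Free CDN2 was above PBS by a log2 fold change of 5.57 ± 0.67 (SE, n = 2 tumors per group, adjusted p = 9.8e-05). ExoCDN2 was above PBS by 2.11 ± 0.59 (adjusted p = 0.027).

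Mmp10, stromelysin-2, was the gene with the fewest reads. With 1 dose it stood at 0.437 and 0.455 CPM with PBS, 0.519 and 0.20 with EVs, 0.173 and 0.166 with 20 µg of CDN2, 0.342 and 0.717 with 100 µg and 0.911 and 0.920 with exoCDN2. With 2 doses it was 0.633 and 0.0656 CPM with PBS, 2.24 and 0.662 with exoCDN2 and 19.8 and 8.0 with CDN2. The PBS values rest on 31 and 3 reads and the CDN2 values on 352 and 301, so the size of the fold rests on few reads. Both CDN2 tumors were above every other tumor, while the exoCDN2 tumors lay on either side of 1 CPM with 115 and 47 reads. Free CDN2 exceeded PBS by 5.28 ± 0.87 on the log2 scale (adjusted p = 0.00057), and the exoCDN2 difference of 2.02 ± 0.81 was not called (adjusted p = 0.11).

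Mmp2, gelatinase A, is a secreted enzyme made largely by fibroblasts. With 1 dose it lay between 6.36 and 13.4 CPM in all 10 tumors, with PBS at 6.43 and 8.31. With 2 doses it was 6.94 and 8.47 CPM with PBS, 28.2 and 14.7 with exoCDN2 and 131 and 35.0 with CDN2. The order of the groups was the same as for Mmp3, again without overlap. Free CDN2 was above PBS by 3.43 ± 0.54 on the log2 scale (adjusted p = 0.00045). The exoCDN2 difference of 1.47 ± 0.51 missed the threshold (adjusted p = 0.066).

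Mmp13, the collagenase, was called against PBS after 2 doses and not after 1. With 1 dose it stood at 7.02 and 5.72 CPM with PBS, 6.29 and 2.20 with EVs, 11.4 and 22.7 with 20 µg of CDN2, 27.7 and 21 with 100 µg and 23.3 and 24.1 with exoCDN2. All 6 tumors given CDN2 in either form were above the 4 given PBS or EVs. With 2 doses it was 2.39 and 1.12 CPM with PBS, 16.7 and 7.90 with exoCDN2 and 38.6 and 18.1 with CDN2. Against PBS, the log2 fold change after 2 doses was 4.0 ± 0.62 with CDN2 (adjusted p = 0.00038) and 2.80 ± 0.59 with exoCDN2 (adjusted p = 0.0066). The PBS tumors of 2 doses were themselves lower than those of 1 dose, by a difference of -1.86 ± 0.58 that was not called (adjusted p = 0.21).

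Mmp12, the macrophage elastase, was called in no comparison. After 1 dose it was 23.9 and 18.7 CPM with PBS, 17.3 and 21.1 with EVs, 11.7 and 23.7 with 20 µg of CDN2, 33.3 and 41.6 with 100 µg and 17.3 and 26.8 with exoCDN2. After 2 doses it was 19.3 and 7.59 CPM with PBS, 28.9 and 16.5 with exoCDN2 and 36.2 and 20.9 with CDN2, and exoCDN2 overlapped both other groups. The CDN2 difference from PBS was 1.08 ± 0.46 (adjusted p = 0.071).

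Mmp14, the membrane-bound protease, was the most abundant of the 6 in PBS tumors and moved the other way. In the 10 tumors of 1 dose it lay between 131 and 176 CPM. With 2 doses it was 160 and 204 CPM with PBS, 168 and 164 with exoCDN2 and 51.4 and 111 with CDN2. Both CDN2 tumors were below all 14 other tumors of the labelled groups. The log2 fold change against PBS was -1.16 ± 0.27 (adjusted p = 0.0042), and it was short of a ratio of 2 without CDN2 tumor 1 (-0.73) or PBS tumor 2 (-0.99). ExoCDN2 and PBS differed by -0.13 ± 0.26 (adjusted p = 0.78).

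Timp1, the inhibitor most readily induced in inflamed tissue, had the same order of groups after 2 doses as Mmp2 and Mmp3. With 1 dose it stood at 16.4 and 16.9 CPM with PBS, 21.6 and 31.1 with EVs, 25.8 and 28.3 with 20 µg of CDN2, 36.7 and 35.3 with 100 µg and 37.2 and 34.2 with exoCDN2. With 2 doses it was 17.7 and 18.1 CPM with PBS, 65.2 and 39.1 with exoCDN2 and 420 and 92.6 with CDN2. The 4 PBS tumors were below the 12 other tumors of the labelled groups. After 2 doses, CDN2 was above PBS by 3.84 ± 0.54 (adjusted p = 0.00022) and exoCDN2 by 1.54 ± 0.49 (adjusted p = 0.049), which is at the edge of the threshold.

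Timp3, the matrix-bound inhibitor, showed a smaller difference. It was 24.5 and 24.8 CPM with PBS after 2 doses, 59.9 and 34.7 with exoCDN2 and 125 and 55 with CDN2. With 1 dose it lay between 24.9 and 33.8 CPM with PBS, EVs and 20 µg of CDN2, and between 41.1 and 59.6 with 100 µg and exoCDN2. After 2 doses, CDN2 was above PBS by 1.87 ± 0.34 (adjusted p = 0.0011), and the exoCDN2 difference of 0.94 ± 0.34 was not called (adjusted p = 0.075).

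Timp2, the most abundant of the 9 in PBS tumors, lay lower after 2 doses of either treatment. After 2 doses it was 237 and 293 CPM with PBS, 131 and 140 with exoCDN2 and 179 and 143 with CDN2. Both treated groups were below both PBS tumors. The differences from PBS were -0.97 ± 0.17 with exoCDN2 (adjusted p = 0.0022) and -0.72 ± 0.17 with CDN2 (adjusted p = 0.0043), below the limit on p but not beyond a ratio of 2. PBS itself was at 168 and 179 CPM after 1 dose, and the difference between the PBS groups, 0.61 ± 0.17, was not called (adjusted p = 0.14).

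Counted together, 0 of the 9 genes were called by edgeR in 6 of the 7 comparisons of tumors given 1 dose. Unloaded EVs differed from PBS in 0% of all genes tested, and among the 9 no unadjusted p was under 0.05 (0 genes); DESeq2 also called 0. Against PBS, 20 µg of CDN2 changed 3.14% of all genes, 100 µg changed 2.44% and exoCDN2 changed 2.62%, while at an unadjusted p under 0.05 the 9 genes gave 1, 2 and 2, and DESeq2 called 0, 1 and 1. Mmp13 had the smallest p of the 9 in all 3 of these comparisons, with log2 fold changes of 1.42 ± 0.55, 1.93 ± 0.55 and 1.90 ± 0.55 and adjusted p of 0.21, 0.096 and 0.096. These comparisons share the PBS tumors. In the remaining 1-dose comparison, exoCDN2 against unloaded EVs, Mmp13 was called at 2.48 ± 0.57 (adjusted p = 0.033), beside 2.52% of all genes called higher. The neutrophil marker sum was 73.0 and 44.1 CPM in these exoCDN2 tumors and 13.2 and 7.90 with EVs, and its part in the result was not tested. The Mmp13 call was lost without EV tumor 2 (1.92, adjusted p = 0.28), exoCDN2 tumor 1 (2.50, adjusted p = 0.12) or exoCDN2 tumor 2 (2.46, adjusted p = 0.13).

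No difference between amounts or forms of CDN2 was called for these genes after 1 dose, where exoCDN2 carried 0.1 µg and the free agonist was given at 20 or 100 µg. ExoCDN2 against 20 µg of CDN2 called 0.608% of all genes and 0 of the 9, with 3 at an unadjusted p under 0.05 and 0 by DESeq2. The 100 µg group against the 20 µg group called 0.455% and 0 of the 9, with 3 at an unadjusted p under 0.05 and 0 by DESeq2. Mmp3 and Timp3 had an unadjusted p under 0.05 in both, Mmp3 with differences of 1.49 ± 0.59 and 1.52 ± 0.59 on the log2 scale (adjusted p = 0.19 and 0.22), and these comparisons share the 20 µg tumors.

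After 2 doses of free CDN2, 7 of the 9 genes were called against PBS. Mmp2, Mmp3, Mmp10, Mmp13, Timp1 and Timp3 rose and Mmp14 fell, beside 20% of all genes called higher and 10.6% lower. The median log2 fold change of the 9 was 3.43, against 0 over all genes. Without tumor 1 of the CDN2 group the same 6 were called higher, with values of 2.17 for Mmp2, 4.07 for Mmp3, 4.48 for Mmp10, 3.35 for Mmp13, 2.36 for Timp1 and 1.14 for Timp3.

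After 2 doses of exoCDN2, Mmp3, Mmp13 and Timp1 were called, all higher, beside 8.87% of all genes called higher. The median log2 fold change of the 9 was 1.47, against 0.01 over all genes. These 3 calls were lost when exoCDN2 tumor 1 or PBS tumor 2 was left out, with 0 of the 9 called by edgeR in either case, and 6 were called without exoCDN2 tumor 2.

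Set directly against free CDN2 at 2 doses, at 0.1 µg against 20 µg per dose, exoCDN2 gave lower levels of Mmp2 (-1.95 ± 0.51, adjusted p = 0.013), Mmp3 (-3.46 ± 0.60, adjusted p = 0.0025), Mmp10 (-3.27 ± 0.77, adjusted p = 0.0087) and Timp1 (-2.29 ± 0.50, adjusted p = 0.0062). Mmp14 was higher with exoCDN2, by 1.03 ± 0.27 (adjusted p = 0.013). Of all genes, 12% were called lower and 7.34% higher. Timp3 at -0.93 ± 0.33 (adjusted p = 0.046) was within a ratio of 2, and Mmp13 at -1.20 ± 0.54 was not called (adjusted p = 0.097). The number of calls depended on single tumors. Without CDN2 tumor 1, only Mmp3 was called (-1.98, adjusted p = 0.0097), without exoCDN2 tumor 2 again 1 gene, Mmp3 (-3.09, adjusted p = 0.035), and an edgeR fit of these groups alone called 0 of the 9, where DESeq2 called 5 on all 16 tumors.

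**Figure D2:**
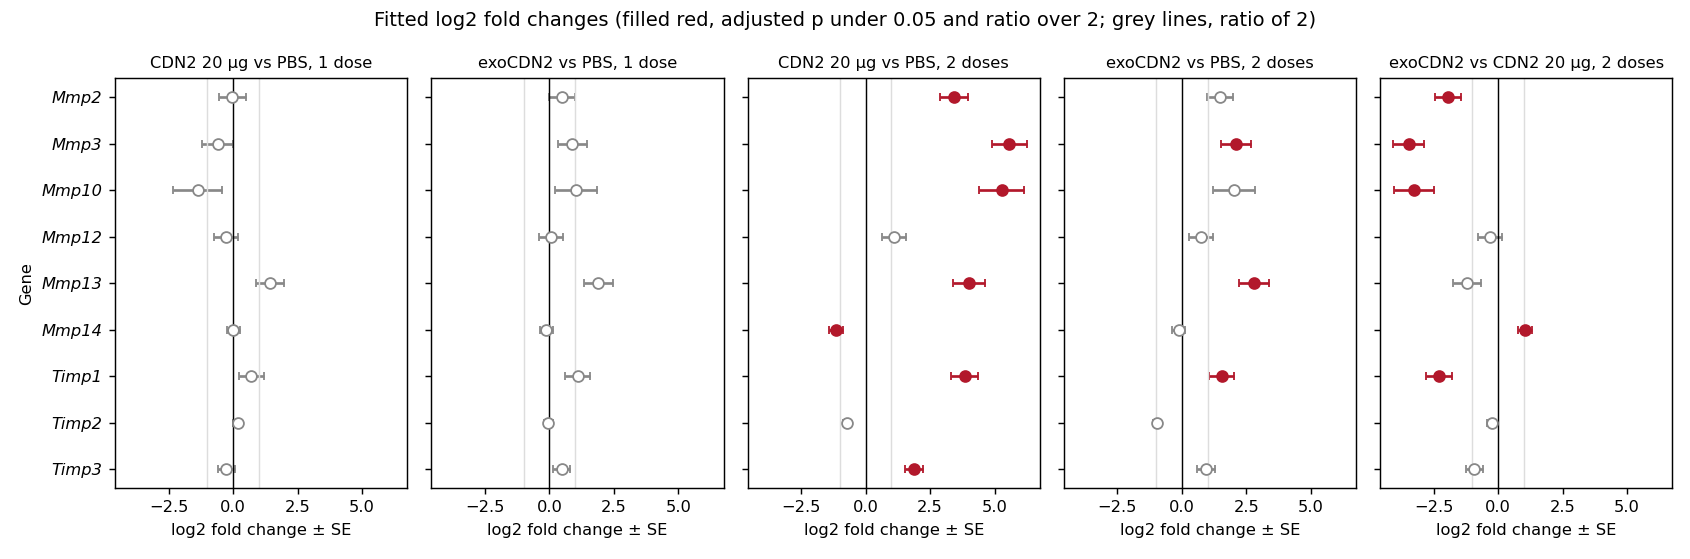
Log2 fold changes with their SE for the 9 genes in 5 comparisons of 2 tumors against 2, from the fit of all 16 tumors; filled red points were called and open grey points were not, and grey lines mark a ratio of 2. After 1 dose neither treatment called a gene, and after 2 doses Mmp3 stood at 5.57 with free CDN2 and 2.11 with exoCDN2.

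A second dose of CDN2 was also compared with the first. Mmp2 rose by 3.52 ± 0.55 (adjusted p = 0.0012), Mmp3 by 5.84 ± 0.68 (adjusted p = 0.00044), Mmp10 by 6.33 ± 0.96 (adjusted p = 0.0011), Timp1 by 3.24 ± 0.52 (adjusted p = 0.0013) and Timp3 by 1.76 ± 0.34 (adjusted p = 0.003), beside 14.4% of all genes called higher. Without tumor 1 of the 2-dose group these 5 were 2.26, 4.34, 5.52, 1.76 and 1.03 in the same order, all still called. Mmp13 differed by 0.73 ± 0.54 (adjusted p = 0.30). For exoCDN2, the same step called 7.44% of all genes and 0 of the 9 by edgeR, with 0 at an unadjusted p under 0.05 and 0 by DESeq2. In PBS tumors it called 1.1% of all genes and 0 of the 9, with 2 at an unadjusted p under 0.05, Mmp13 and Timp2, and 1 by DESeq2.

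The difference between the effects of 1 and 2 doses relative to PBS was tested as an interaction. For CDN2 it was called for 7 of the 9 genes, 6 with a positive difference, beside 11.7% of all genes positive and 5.16% negative. The negative one was Mmp14, which was lower than PBS at 2 doses. Mmp10 had the highest value, 6.66 ± 1.26 (adjusted p = 0.0057), followed by Mmp3 at 6.18 ± 0.87 (adjusted p = 0.002). Without tumor 1 of the 1-dose CDN2 group 3 of the 9 were called. For exoCDN2, 6.82% of all genes were called and 0 of the 9 by edgeR, with 1 at an unadjusted p under 0.05 and 0 by DESeq2. That gene was Timp2, at -0.93 ± 0.24 (adjusted p = 0.034).

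**Figure D3:**
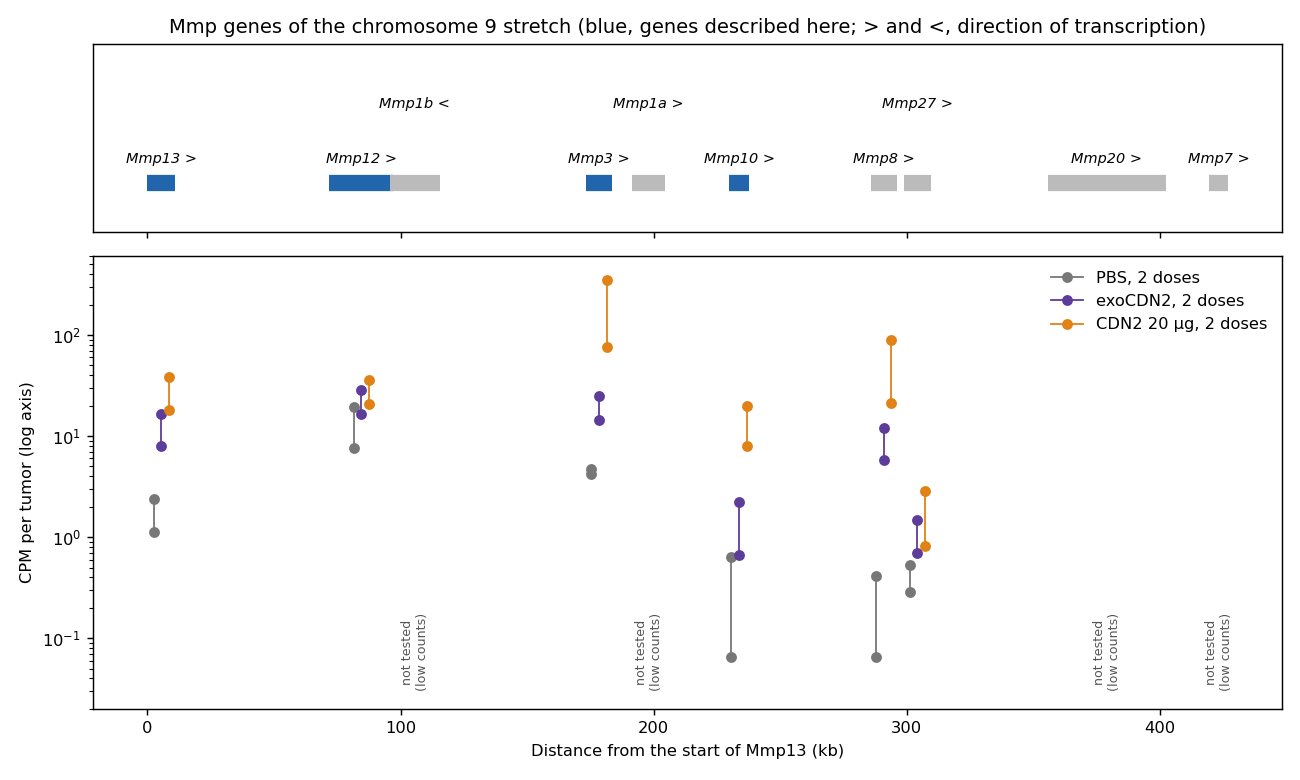
Top, the 10 Mmp genes of the chromosome 9 cluster by distance in kb from the start of Mmp13; bottom, their CPM (log axis) in each tumor of the 2-dose groups, with a line joining the 2 tumors of a group. Mmp3, Mmp10 and Mmp8 were far above PBS in both CDN2 tumors, while Mmp12, between Mmp13 and Mmp3, spanned 20.9 to 36.2 CPM with CDN2 and 7.59 to 19.3 with PBS.

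Neighbours in the cluster did not move by the same amount. Mmp12, which lies between Mmp13 and Mmp3, differed by 1.08 on the log2 scale after 2 doses of CDN2, against 4.0 and 5.57 for those neighbours. Mmp8, neutrophil collagenase, lies 48.2 kb beyond Mmp10 and stood at 89.9 and 21 CPM with CDN2, 11.9 and 5.80 with exoCDN2 and 0.408 and 0.0656 with PBS, the last resting on 20 and 3 reads. Of the others, Mmp7 and Mmp20 had 0 expected counts in all 18 tumors and Mmp1a at most 1, so Mmp1a, Mmp1b, Mmp7 and Mmp20 were not tested.

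The sums of the 6 metalloproteinases and of the 3 inhibitors were both higher after 2 doses of CDN2 than with PBS, and their makeup differed. In CPM per kb, the 6 summed to between 35.1 and 40.9 in PBS tumors and to 275 and 85.8 after 2 doses of CDN2. The 3 inhibitors summed to between 65.4 and 98.7 in PBS tumors and to 534 and 147.9 after 2 doses of CDN2. The ratio of the sums was 0.515 and 0.580 in these CDN2 tumors. After 2 doses it was 0.419 and 0.414 with PBS and 0.541 and 0.539 with exoCDN2. The PBS tumors of 1 dose had 0.557 and 0.538, so the treated tumors were not above all PBS tumors. Over all 18 tumors the ratio lay between 0.410 and 0.583. Without Mmp14, the 5 secreted metalloproteinases stood to the inhibitors at 0.499 and 0.454 after 2 doses of CDN2 and at 0.294 and 0.213 with exoCDN2, against 0.0675 to 0.167 in the 4 PBS tumors. Both CDN2 tumors were above every other tumor in this ratio. Mmp14 gave between 69.0% and 83.7% of the metalloproteinase sum with PBS, 45.7% and 60.6% with 2 doses of exoCDN2 and 3.14% and 21.7% with 2 doses of CDN2. Mmp3 gave 71.4% and 49.5% of it in the CDN2 tumors and between 6.07% and 11% with PBS. Among the inhibitors, the share of Timp1 was between 20.7% and 28.2% with PBS, 64.2% and 52.3% with 2 doses of exoCDN2 and 88.5% and 70.5% with 2 doses of CDN2. These are sums of RNA per kb of joined exons, so the weight of each gene depends on that length. Neither protein nor enzyme activity was measured.

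Other members of the system were read from lists of genes written by name. Of 17 further Mmp genes, 10 could be tested, and after 2 doses of CDN2 6 were called higher and 1 lower against PBS, beside 20% and 10.6% of all genes. Mmp8 rose by 7.83 ± 0.92 (adjusted p = 8.5e-05), the gelatinase Mmp9 by 4.10 ± 0.68 (adjusted p = 0.00058) and Mmp23 by 3.68 ± 0.58 (adjusted p = 0.00043), while the membrane-type Mmp15 fell by 1.42 on the log2 scale (SE 0.32, adjusted p = 0.0035). The list's median was 1.99. With exoCDN2, Mmp8 (5.18 ± 0.86, adjusted p = 0.0016) and Mmp23 (2.13 ± 0.55, adjusted p = 0.02) were called. Mmp8 and Mmp9 are also neutrophil markers.

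Genes that open metalloproteinase precursors or clear the enzymes were also read. Of 17 tested, 13 were higher and 1 lower with 2 doses of CDN2 (median 1.56), and 7 were higher with exoCDN2 (median 1.10). Of all genes, 20% were higher and 10.6% lower with CDN2, and 8.87% were higher with exoCDN2. They included the cathepsins Ctsl (1.95 ± 0.22), Ctsb (1.4 ± 0.19) and the collagen-degrading Ctsk (2.93 ± 0.43), with adjusted p between 6.9e-05 and 0.00031.

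Inhibitors outside the Timp family were also called. Of 8 tested, 6 rose with 2 doses of CDN2 (median 2.32) and 3 with exoCDN2 (median 0.79), beside 20% and 8.87% of all genes. Tfpi2, an inhibitor of serine proteases, rose by 4.54 ± 0.45 with CDN2 (adjusted p = 3.4e-05) and 1.80 ± 0.41 with exoCDN2 (adjusted p = 0.0099), and thrombospondin-1, Thbs1, by 4.59 ± 0.60 (adjusted p = 0.00015) and 2.81 ± 0.55 (adjusted p = 0.0046).

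The related Adam and Adamts proteases were mixed. Of 16 tested, 5 rose and 2 fell with 2 doses of CDN2, with a median of -0.06, beside 20% of all genes higher and 10.6% lower. Adam8, a protease of myeloid cells, rose by 3.92 ± 0.43 (adjusted p = 6.4e-05) and the aggrecanase Adamts5 by 2.04 ± 0.31 (adjusted p = 0.00033), while Adam12 fell by 2.46 on the log2 scale (SE 0.37, adjusted p = 0.00034). With exoCDN2 3 rose and 1 fell, beside 8.87% of all genes called higher.

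Among 19 tested matrix genes that these enzymes can cut, 8 rose with 2 doses of CDN2 (median 0.92) and 7 with exoCDN2 (median 0.74), beside 20% and 8.87% of all genes. Tnc, tenascin-C, rose by 3.17 ± 0.40 (adjusted p = 0.00013), Spp1, osteopontin, by 3.18 ± 0.46 (adjusted p = 0.00028) and the proteoglycan Bgn by 3.54 ± 0.54 (adjusted p = 0.00035) with CDN2. After 1 dose of 20 µg of CDN2, chains of type IV collagen, the basement membrane collagen, fell. Col4a2 fell by 1.04 (SE 0.16, adjusted p = 0.0035) and Col4a1 by 1.00 (SE 0.20, adjusted p = 0.014) on the log2 scale. Endothelial markers were lower in the same tumors, with a sum of 6 genes of 33.1 and 33.3 CPM against 88 and 90.8 with PBS. Of these, 5 were called lower, beside 3.14% of all genes called in either direction. Among them were Kdr (-2.13 ± 0.26, adjusted p = 0.00064) and Emcn (-1.40 ± 0.26, adjusted p = 0.0093). With 1 dose of 100 µg of CDN2 the sum of the 6 was 83.6 and 115.7 CPM, so this drop was seen at 20 µg only. The part of these markers in the collagen result was not tested.

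Transcription factors and cytokines known to act on Mmp genes were called already after 1 dose. Of 18 factors, 5 rose with 20 µg of CDN2, among them Jun (3.05 ± 0.36, adjusted p = 0.00048), Junb (2.74 ± 0.35, adjusted p = 0.00094), Fos (1.88 ± 0.25, adjusted p = 0.0012) and Atf3 (3.09 ± 0.43, adjusted p = 0.0017), and 3 rose with exoCDN2. After 1 dose 3.14% of all genes were called in either direction with 20 µg of CDN2 and 2.62% with exoCDN2. After 2 doses 13 rose and 2 fell with CDN2 (median 2.31), and 8 rose with exoCDN2 (median 1.14), beside 20% higher and 10.6% lower of all genes with CDN2 and 8.87% higher with exoCDN2. Of 15 cytokine genes tested, 9 rose after 1 dose of 20 µg of CDN2 and 8 after exoCDN2, with medians of 2.63 and 3.38. Tnf rose by 3.66 ± 0.60 (adjusted p = 0.005) and 4.01 ± 0.61 (adjusted p = 0.003), and Il6 by 7.01 ± 1.12 (adjusted p = 0.0041) and 7.10 ± 1.12 (adjusted p = 0.0038). After 2 doses 12 rose with CDN2 (median 5.95) and 7 with exoCDN2 (median 2.65), where 20% and 8.87% of all genes were called higher. Il1a, the alpha form of interleukin-1, rose by 7.56 ± 0.81 with CDN2 (adjusted p = 5.2e-05) and 3.79 ± 0.77 with exoCDN2 (adjusted p = 0.0056). In the direct 2-dose comparison, 8 of these cytokine genes were lower with exoCDN2, beside 12% of all genes. Il1a was lower by 3.77 on the log2 scale (SE 0.63, adjusted p = 0.0023).

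Markers of several cell types moved with the 2-dose CDN2 group. The summed level of 8 fibroblast genes was 1896 and 924 CPM, against 396 and 364 with PBS and 1036 and 475 with exoCDN2. The sum of 8 neutrophil genes, Mmp8 and Mmp9 included, was 990 and 228 CPM, against 3.66 and 2.36 with PBS and 75.8 and 25.8 with exoCDN2. That of 6 monocyte genes was 1883 and 771 CPM, against 136 and 125 with PBS and 992 and 643 with exoCDN2. That of 8 macrophage genes was 699.6 and 478 CPM, against 192 and 171 with PBS and 577 and 382 with exoCDN2. In the PBS tumors of 1 dose the macrophage sum was 327 and 418 CPM. Skeletal muscle genes, 6 in number, summed to 3670 and 2124 CPM, against 176 and 312 with PBS and 188 and 198 with exoCDN2. The 8 melanocyte lineage genes were lower, at 7747 and 13679 CPM against 25011 and 25543 with PBS and between 15980 and 17276 with exoCDN2. Pericyte and smooth muscle genes, 6 in number, summed to 1165 and 581 CPM with CDN2, against 100.2 and 81.0 with PBS and 94.4 and 102 with exoCDN2. Of these 6 genes 2 were called higher with CDN2, beside 20% of all genes. They were desmin (Des, 4.75 ± 0.77, adjusted p = 0.00051), which skeletal muscle also makes, and Acta2 (1.12 ± 0.40, adjusted p = 0.034). The median over the 6 was 0.21. The T cell sum was highest with exoCDN2, at 31.4 and 24.9 CPM against 6.98 and 7.71 with CDN2 and 1.98 and 1.01 with PBS. The keratinocyte sum was 87.8 CPM in exoCDN2 tumor 1 and 41.3 in CDN2 tumor 1, against 2.18 and 7.47 in the other tumor of each group. Endothelial genes summed to 64.0 and 94.8 CPM with CDN2, 104 and 105 with exoCDN2 and 97.7 and 84.0 with PBS. Among these lists at 2 doses, 1 neutrophil gene was at 0 in PBS tumor 2, and keratinocyte genes were at 0 in 3 of the labelled tumors. Tumor 1 of the CDN2 group, with the higher Mmp2, Mmp3, Mmp10, Mmp12, Mmp13, Timp1 and Timp3 and the lower Mmp14, had the higher value of the fibroblast, neutrophil, monocyte, macrophage and muscle sums and the lower melanocyte sum. The part of these markers in the results for the 9 genes was not tested.

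Fibroblast genes differed widely among themselves. With 2 doses of CDN2, 5 of the 8 fibroblast genes were called higher, beside 20% of all genes, with a median log2 fold change of 1.37. Dcn, decorin, rose by 5.60 ± 0.85 (adjusted p = 0.00035), from 16.5 and 12.8 CPM with PBS to 1242 and 183. The sum of the list is thus a mixture of genes that moved by different amounts. Per 100 CPM of the fibroblast sum, Mmp3 was 18.7 and 8.28 CPM with CDN2, 2.38 and 3.01 with exoCDN2 and 1.07 and 1.31 with PBS. On the same scale Timp1 was 22.1 and 10 CPM with CDN2, 6.30 and 8.24 with exoCDN2 and 4.48 and 4.97 with PBS. Mmp2 was 6.93 and 3.79 with CDN2, 2.72 and 3.10 with exoCDN2 and 1.75 and 2.33 with PBS. Mmp13 was 2.04 and 1.96 with CDN2, 1.61 and 1.66 with exoCDN2 and 0.604 and 0.306 with PBS. The PBS tumors of 1 dose had 1.36 and 1.90 for Mmp3 and 5.59 and 4.37 for Timp1. They had 2.19 and 2.14 for Mmp2 and 2.39 and 1.47 for Mmp13, the latter on either side of the CDN2 values. These values depend on which fibroblast genes are summed, and the part of fibroblast content in the results was not tested.

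**Figure D4:**
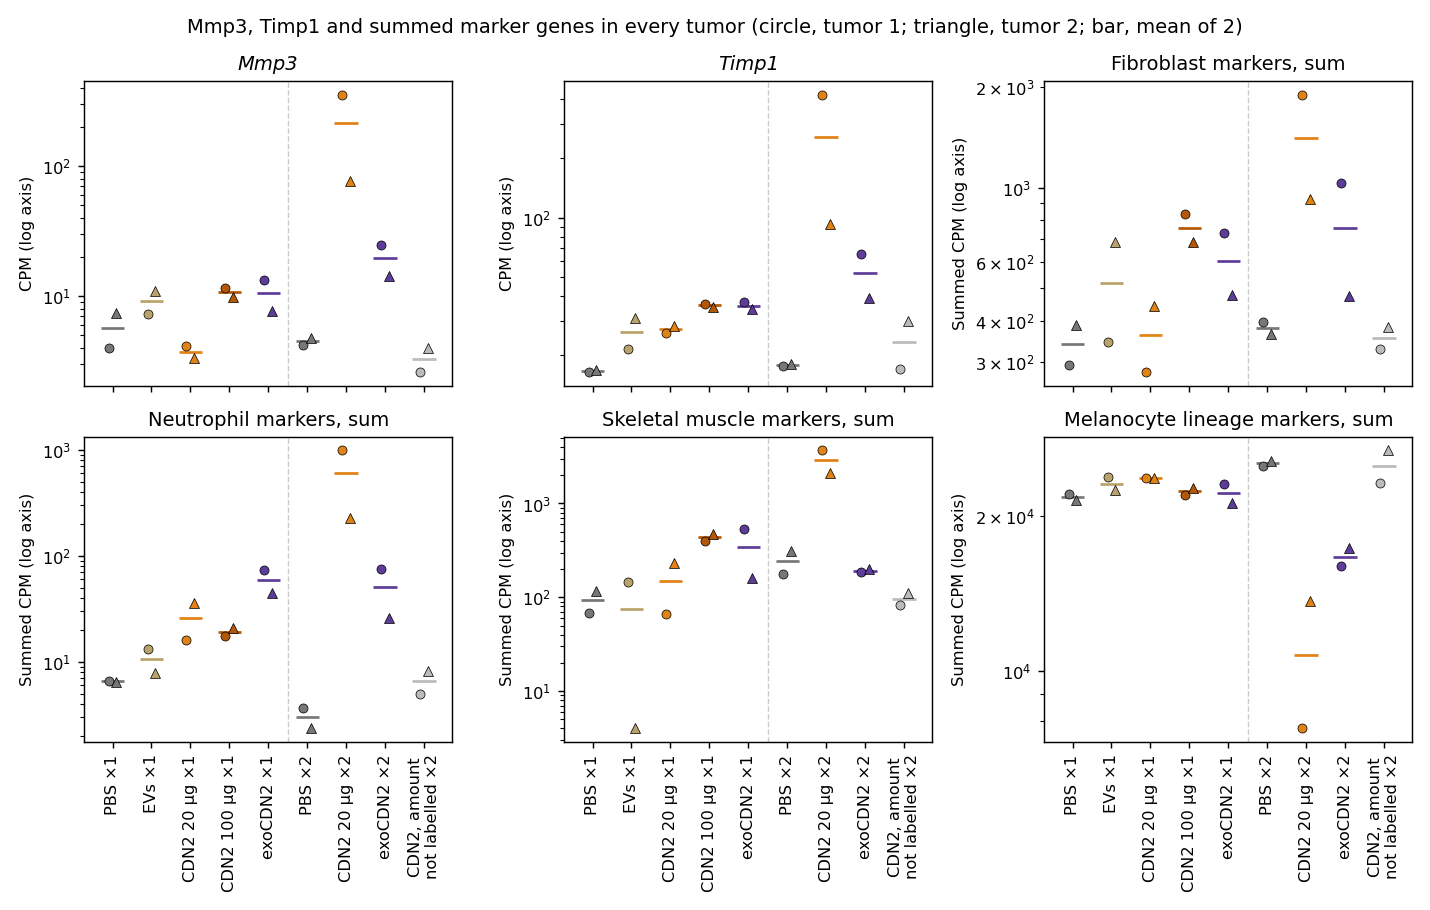
Mmp3, Timp1 and the summed CPM of fibroblast, neutrophil, skeletal muscle and melanocyte lineage marker genes in every tumor (log axes; circle, tumor 1; triangle, tumor 2; bar, mean). In the group given 2 doses of CDN2, the muscle sum was 3670 and 2124 CPM, and the melanocyte sum was 7747 and 13679 CPM, below every other tumor.

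Across the 16 tumors of the labelled groups, the 9 genes fell into different patterns. These correlations of log2 CPM describe tumors that share treatments and composition, and they carry no test. Mmp3 followed Mmp2 (Pearson r = 0.98, n = 16) and Timp1 (0.95), and without the pair of CDN2 tumors of 2 doses the values were 0.92 and 0.80 (n = 14). The genes most like Mmp2 were Fgfr1, Dcn and Ackr3 (r = 0.99, 0.98 and 0.98), and those most like Timp1 were Mfap5, Dcn and Clmp (0.98, 0.98 and 0.98). Those most like Mmp3 were Fgfr1, Il1rl2 and Mmp2 (each 0.98), those most like Mmp10 were Tbx1, Tnfrsf23 and Csgalnact1 (0.97, 0.95 and 0.95), and those most like Timp3 were Tnc, Ebf1 and Sema3c (0.94, 0.94 and 0.93).

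Mmp13 followed Mmp2 and Mmp3 less closely, with r = 0.45 and 0.47, as did Mmp12, with r = 0.43 and 0.42. Mmp13 had r = 0.69 to Timp3, 0.68 to Mmp12, 0.60 to Timp1 and 0.56 to Mmp10. It was most like the chemokine Ccl4, the adhesion molecule Vcam1 and the oxysterol enzyme Ch25h (r = 0.96, 0.95 and 0.95), and these values were 0.96, 0.96 and 0.95 without the CDN2 tumors of 2 doses. Mmp12 had no gene above 0.84, the value of Msrb3, followed by Fzd8 and Sema3d at 0.82 and 0.81. Mmp14 ran opposite to Timp1 (r = -0.86) and to Mmp3 (-0.83) over 16 tumors, and these values were -0.14 and -0.05 over the 14 without the CDN2 tumors of 2 doses, so the opposition rested on that pair. Timp2 ran opposite to Timp3 (-0.50) and Mmp13 (-0.67), with -0.65 and -0.69 over the 14. The 3 genes most like Mmp14 had r of 0.97 to 0.98 over 16 tumors and 0.67 to 0.75 over 14, and those most like Timp2 had 0.88 to 0.89 over 16.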

How the data were processed

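RNA of whole B16F10 tumors was sequenced as paired reads. The authors used OmicSoft ArraySuite to filter reads by quality, with OSA as the aligner and GRCm38 as the genome. They deposited the expected counts per gene that RSEM estimated on the Ensembl R88 models, without normalization. Whether counting used strand is not given in the sources used here. Expected counts were rounded; 8.75% to 12.7% of values per tumor were not whole, as were 25 of 162 values of the 9 genes, and reads shared with close relatives make these uncertain. Totals of 21608895 to 65983630 set the precision.

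Counts of 16 tumors in 8 groups were fitted in 1 quasi-likelihood model with edgeR 4.0.16 in R 4.3.3, after filterByExpr (minimum count 10, minimum total 15) and TMM scaling. The biological coefficient of variation was 0.22, with 8 residual degrees of freedom. The Benjamini-Hochberg adjustment ran over 16927 genes. A gene was called past a ratio of 2 with an adjusted p below 0.05, the limits that the study's methods set for DESeq2. In all, 15 comparisons were made. Levels were CPM, and CPM per kb of the exon union of GENCODE M21, since RSEM's effective lengths were not used here. The fit was tested on simulated data, and the share of changed genes it had to recover was lowered after the first run.

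The 9 genes and the gene lists were chosen with earlier results of these data known. Named from each list were at most 4 called genes per comparison with the smallest p, and for likeness the 3 genes with the highest r per gene; not all are printed, and 1 listed gene is not reported here. The values of Mmp8 by tumor, the split of the sums into shares and the scaling to fibroblast genes were chosen after values were seen, and the ISRE and NF-kB letters were shortened by 1 letter each after a first search.

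The alternatives were DESeq2 1.42.0, RLE factors, no filter, no limit on the ratio, only the groups compared, all 18 tumors fitted, PBS tumors pooled over dose numbers, the replicate number as a block, and each tumor left out in turn. The 2 tumors of unlabelled CDN2 amount entered no comparison.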

Additional observations from a re-analysis of the deposited data

Results flagged for a closer look

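The effect of CDN2 against PBS differed between 1 and 2 doses by the interaction test of edgeR (n = 2 tumors per group). The difference of the log2 fold changes was 3.46 for Mmp2 (adjusted p = 0.0086), 6.18 for Mmp3 (adjusted p = 0.002), 6.66 for Mmp10 (adjusted p = 0.0057), 2.58 for Mmp13 (adjusted p = 0.037), 3.14 for Timp1 (adjusted p = 0.011) and 2.13 for Timp3 (adjusted p = 0.011). It was negative for Mmp14, at -1.17 (adjusted p = 0.045), and for Timp2, at -0.89 (adjusted p = 0.022). The PBS tumors in this test differed between dose numbers as well. From 1 to 2 doses, mean Mmp13 went from 6.37 to 1.75 CPM with PBS and from 17.1 to 28.4 with CDN2. Mean Timp2 went from 174 to 265 CPM with PBS and from 195 to 161 with CDN2. Without tumor 1 of the 2-dose CDN2 group, the calls of Mmp13 (1.92, adjusted p = 0.11) and Mmp14 (-0.75, within a ratio of 2) were lost, and Mmp2 was 2.19, Mmp3 4.66, Mmp10 5.85, Timp1 1.65 and Timp3 1.39.

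For exoCDN2, the same test, which uses the same PBS tumors, gave -0.93 for Timp2 (adjusted p = 0.034).

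The 2 tumors given 2 doses of free CDN2 of unlabelled amount entered no comparison. Their Mmp12 was 33.5 and 55.9 CPM and their Mmp13 was 8.07 and 8.15 CPM, in each case above all 4 PBS tumors, whose highest values were 23.9 and 7.02 CPM. Their Mmp3 was 2.59 and 4.0 CPM and their neutrophil sum 4.99 and 8.12 CPM, within or near the PBS range, where the 2-dose tumors labelled 20 µg had 354 and 76.5 CPM of Mmp3.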

How the results depend on the processing

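Counts below are of the 9 genes called. The share of all genes called was not computed for these settings, so a changed count need not be particular to the 9. In the comparisons with 0 calls after 1 dose, no filter on low counts gave 1 for 20 µg of CDN2, 2 for 100 µg and 2 for exoCDN2 against PBS, 2 for exoCDN2 against 20 µg of CDN2 and 3 for 100 µg against 20 µg. A fit of only the groups compared gave 2 for 100 µg and 3 for exoCDN2 against PBS, 2 for exoCDN2 against 20 µg and 1 for 100 µg against 20 µg, and pooling the PBS tumors or using DESeq2 gave 1 each for 100 µg and exoCDN2 against PBS. With 2 doses, exoCDN2 against PBS gave 5 in place of 3 without the filter, and exoCDN2 against CDN2 gave 0 in place of 5 in a fit of only those groups. For 2 doses against 1, PBS gave 1 without the filter or with DESeq2, exoCDN2 gave 1 without the filter, and CDN2 gave 3 in place of 5 in a fit of only those groups. The change of effect gave 4 in place of 7 for CDN2 in a fit of only those groups, and 1 in place of 0 for exoCDN2 without the limit on the ratio or without the filter. The cause was not tested.

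Leaving out 1 tumor at a time gave 0 to 1 calls for exoCDN2 against EVs, 0 to 6 for exoCDN2 against PBS and 1 to 7 for exoCDN2 against CDN2 at 2 doses, 6 to 8 for CDN2 against PBS at 2 doses, 5 to 6 for the second dose of CDN2, 3 to 9 for the change of effect of CDN2 and 0 to 1 for that of exoCDN2. The low value of 3 came without CDN2 tumor 1 of 1 dose. A tumor left alone in its group was assumed to vary like the others. The 1 that appeared for exoCDN2 was without exoCDN2 tumor 1 of 1 dose or PBS tumor 1 of 2 doses.

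Of 44 fold changes followed over 300 other settings, 264 kept their direction and side of the threshold, 17 lost the call, 18 gained one and 1 changed sign. In 204 settings without 1 tumor, these were 156, 35, 10 and 3. The signs that changed, none of them called, were those of Mmp13 for EVs against PBS (0.068 with PBS tumors pooled), Mmp14 for exoCDN2 against PBS at 2 doses (-0.30 to 0.058, the latter without PBS tumor 2) and Mmp12 for exoCDN2 against CDN2 at 2 doses (-0.76 to 0.12, with 0.12 without CDN2 tumor 1 and 0.047 without exoCDN2 tumor 2). With DESeq2 size factors 12 of 81 group levels moved by over 1 SD.

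No label says that same-numbered tumors were paired, and deviations of same-numbered tumors correlated by a mean r of 0.0022 over 28 pairs of groups (-0.18 to 0.32, with 4 above 0.1). With the replicate block, 2 in place of 3 genes were called for exoCDN2 against PBS at 2 doses, since Timp1 had 1.51 (adjusted p = 0.06), and no other count changed. Crossing the numbers of the 2-dose CDN2 tumors, a setting chosen after seeing the data, gave 7 for CDN2 against PBS and 5 for its second dose.

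The depth of tumor 1 of the 2-dose CDN2 group, 21608895, was the lowest, and Mmp10 rested on as few as 3 reads, so changes of genes at such levels were not detectable with precision.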
